A study of Mus musculus with 24 samples.

Results

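The 38 genes described here encode fibrillar and basement membrane collagens, laminins and nidogens, adhesive and elastic matrix proteins, proteoglycans, enzymes that process collagen, and proteins by which fibroblasts of the meninges are recognised. They were taken from the deposited gene table by symbol, and all 38 symbols were found among its 45777 genes. All 38 also passed the filter on low counts, which left 18380 genes for testing. By role they fall into 6 collagens of types I, III, V and VI, 10 basement membrane genes, 8 adhesive glycoproteins and elastic fibre genes, 5 small leucine-rich proteoglycans, 3 genes of collagen processing and turnover, and 6 meningeal markers. RNA-seq was made from the prefrontal cortex of wild-type male mice, adult at collection, in 4 groups of 6 libraries. MS_EC12 mice had been through maternal separation, an early-life stress, and received EC-12, a preparation of heat-killed Enterococcus faecalis, for 5 weeks. Control_EC12 mice received EC-12 without separation, MS mice were separated without EC-12, and Control mice had neither. Whether every library stands for its own mouse is not stated in the labels, so each p-value is set against a spread among libraries that may be technical.

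The brain is wrapped in meninges, whose fibroblasts lay down collagen fibres and proteoglycans and carry transporters for small solutes. Within the cortex, vessels are sheathed by a basement membrane, a sheet of type IV collagen and laminins held together by nidogens, made by endothelial cells, mural cells, astrocytes and perivascular fibroblasts. Collagen chains are hydroxylated and folded inside the cell before secretion, and the finished fibres are coated by leucine-rich proteoglycans and cut by membrane-anchored proteases. In whole cortex these RNAs come from cells that are rare beside neurons and glia, and fewer cells of a type cannot be told apart from less RNA per cell.

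Libraries held 26250197 to 39252382 counts. The neuronal gene Snap25 stood at a median of 2496 TPM (a level scaled for gene length and library size). Pdgfra, Slc47a1, Foxc1 and Tbx18, listed as fibroblast markers though not all particular to fibroblasts, stood at 17.5, 3.42, 3.12 and 1.32 TPM. No listed marker of neurons or fibroblasts was at 0 in all libraries. Libraries differed in how read yield followed the GC content of genes. The slope of log2 CPM (counts scaled for library size) on GC was above 0 in 4 MS_EC12, 2 Control_EC12, 1 MS and 0 Control libraries, at 0.101 to 0.678 per 10 percentage points, and lay between −0.225 and −0.0971 in the other 17. Many of the fold changes that involve MS_EC12 are set beside those of these 17 libraries. Of the 17, 2 are MS_EC12 (replicates 1 and 2), 4 Control_EC12, 5 MS and 6 Control. Choroid plexus genes summed to 20.003 to 711 CPM in MS_EC12, with the highest sum in replicate 6, against 17.8 to 30.7 CPM in Control_EC12, 15.3 to 76.9 CPM in MS and 14.4 to 24.1 CPM in Control. Olfactory bulb genes summed to 92.5 to 365, 162 to 431, 60.4 to 205 and 82.7 to 246 CPM in the same order of groups, highest in Control_EC12 replicate 2.

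Levels of the 38 genes spanned more than 3 orders of magnitude. Ptgds, which encodes a prostaglandin D synthase secreted by meningeal cells, choroid plexus and oligodendrocytes, was the most abundant with a median of 2009 TPM over 24 libraries (range 1487 to 2734 TPM). The next were Mgp, a small inhibitor of matrix calcification, at 71.4 TPM (50.7 to 115 TPM), Col6a1, a chain of the beaded-filament collagen VI, at 61.5 TPM (44.8 to 76.2 TPM), and Igf2, a growth factor of the meninges and choroid plexus, at 48.3 TPM (33.4 to 67.5 TPM). Between Ptgds and Mgp the ranges were apart. Every other pair of neighbours in the order of medians overlapped across libraries, so that order is not fixed beyond the spread. At the low end stood Thbs1 at 1.46 TPM, Fbn1 at 1.198 TPM and Lama1, a laminin chain typical of the pial basement membrane, at 0.774 TPM. Among the collagens, Col6a1 and Col6a2 (12.2 TPM) were ahead of Col1a2 (10.5 TPM), Col5a1 (4.74 TPM), Col1a1 (4.57 TPM) and Col3a1 (1.94 TPM). In the basement membrane group the type IV collagen genes Col4a2 (17.8 TPM) and Col4a1 (13.3 TPM) led, followed by the laminin chains Lamb2 (11.1 TPM), Lamc1 (8.41 TPM) and Lamb1 (7.18 TPM).

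**Figure D1:**
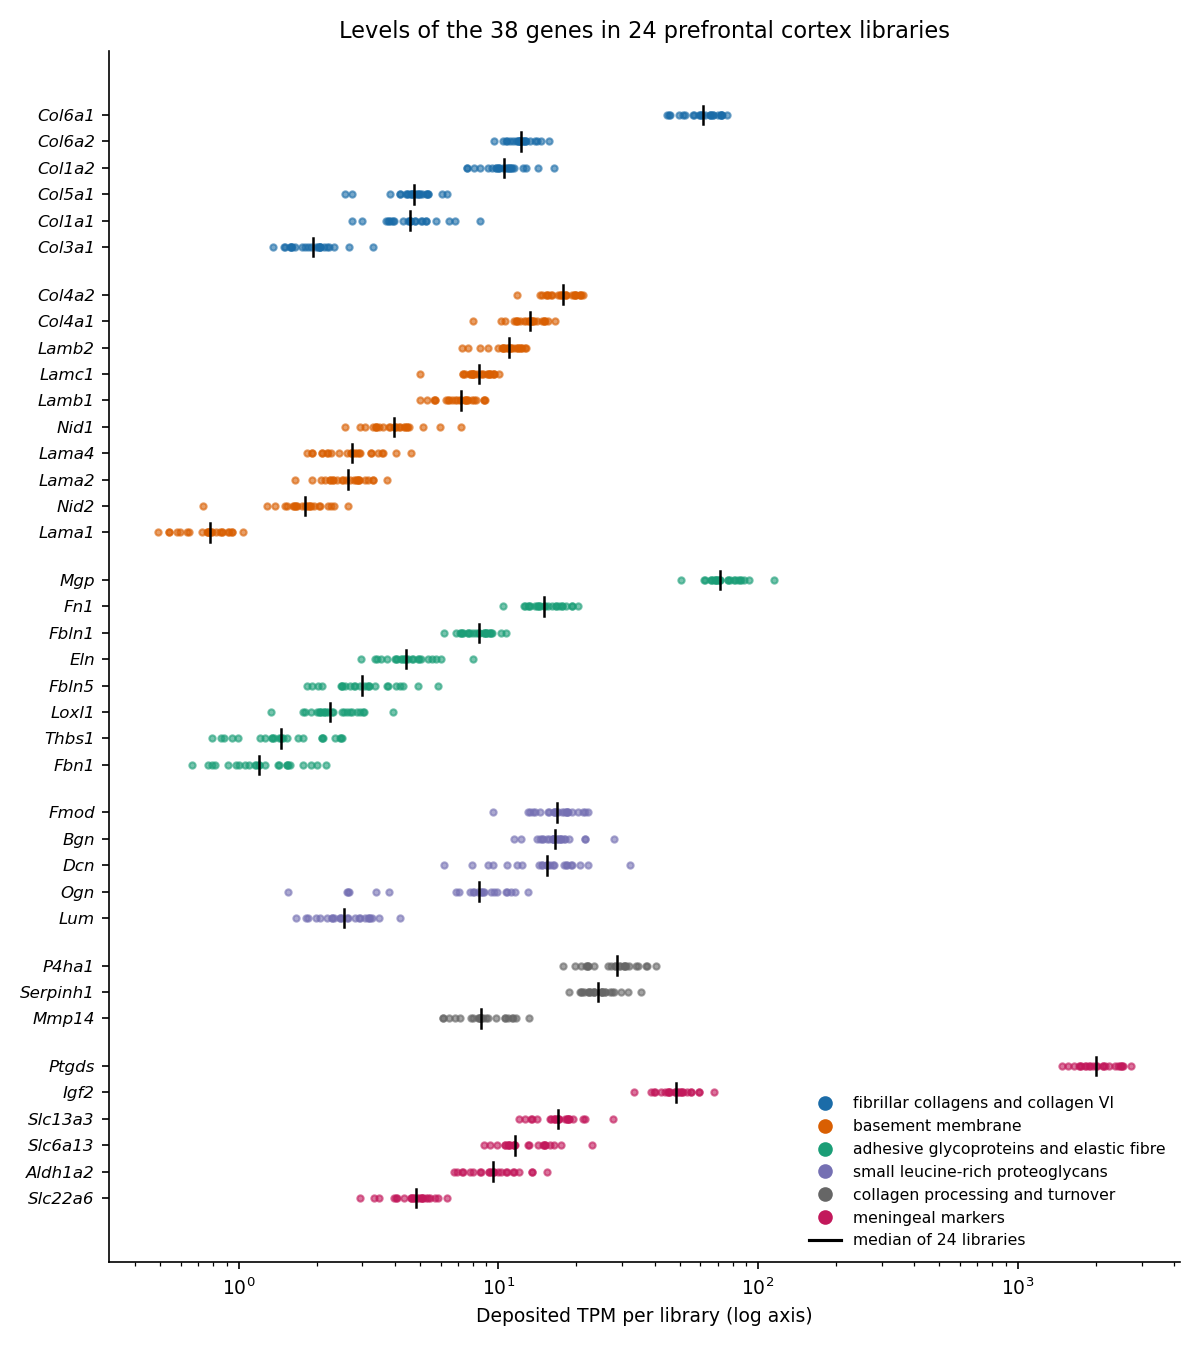
Deposited TPM of each of the 38 genes in 24 libraries (points, log axis), grouped by role, with the median as a black bar. Ptgds (2009 TPM at the median) stands apart from Mgp (71.4 TPM) and the rest.

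The collagen genes are described first. Col1a1 and Col1a2 encode the chains of type I collagen and Col3a1 that of type III, which form fibres together. Col1a1 ran at 7.21 to 14.4 CPM (median 11.9) in MS_EC12, 11.2 to 20.4 CPM (median 15.1) in Control_EC12, 7.498 to 11.5 CPM (median 9.46) in MS and 9.02 to 16.5 CPM (median 11.1) in Control. The highest Control_EC12 libraries were above all others, and all groups overlapped. Against Control_EC12, Col1a1 stood at a log2 fold change of −0.37 ± 0.17 in MS_EC12 (SE, n = 6 libraries per group here and below; adjusted p = 0.3), or −0.81 in the 17 libraries (adjusted p = 0.171), and Control_EC12 stood at 0.36 ± 0.17 against Control (adjusted p = 0.534). Neither comparison passed. In MS_EC12 against MS, Col1a1 stood at 0.26 in all 24 libraries and at −0.13 in the 17.

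Col1a2 ran at 17.6 to 29.4 CPM (median 21.8) in MS_EC12, 21.4 to 34.4 CPM (median 28.1) in Control_EC12, 16.6 to 24.2 CPM (median 21.5) in MS and 22.2 to 24.7 CPM (median 23.4) in Control, again with overlap between all groups. Its log2 fold change was −0.29 ± 0.12 in MS_EC12 against Control_EC12 (adjusted p = 0.287; −0.52 in the 17 libraries) and 0.24 ± 0.12 in Control_EC12 against Control (adjusted p = 0.562). Col3a1 had 3.37 to 5.12 CPM (median 4.22) in MS_EC12, 3.84 to 7.498 CPM (median 5.68) in Control_EC12, 3.54 to 4.63 CPM (median 3.78) in MS and 4.08 to 4.94 CPM (median 4.69) in Control. Control_EC12 held its highest libraries and MS its lowest median. The values were −0.39 ± 0.13 in MS_EC12 against Control_EC12 (adjusted p = 0.211; −0.58 in the 17 libraries), lower in 6 of 6 libraries, and 0.31 ± 0.13 in Control_EC12 against Control (adjusted p = 0.468), higher in 5 of 6. Such counts, here and below, are of the libraries of the first group that lie below or above the mean of the second. Col5a1, which sets fibre diameter, and the collagen VI genes Col6a1 and Col6a2 lay between −0.24 and 0.31 on the log2 scale in all 5 comparisons of groups, and none passed.

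Col4a1 and Col4a2 encode the main chains of type IV collagen and lie head to head on chromosome 8, Col4a1 from 11198423 to 11312889 and Col4a2 from 11312805 to 11449287 (GRCm38), with 85 bases of overlap between their spans. Their promoter windows in the RefSeq table of GRCm38.p6, each 250 bases before to 50 after the start, share 78 bases, printed in capitals below on the strand of each gene because they show how close the starts of this gene pair are. The Col4a1 window is chr8:11312777-11313076 on the minus strand and has 74% GC. The Col4a2 window is chr8:11312555-11312854 on the plus strand and has 73.7% GC.
Col4a1: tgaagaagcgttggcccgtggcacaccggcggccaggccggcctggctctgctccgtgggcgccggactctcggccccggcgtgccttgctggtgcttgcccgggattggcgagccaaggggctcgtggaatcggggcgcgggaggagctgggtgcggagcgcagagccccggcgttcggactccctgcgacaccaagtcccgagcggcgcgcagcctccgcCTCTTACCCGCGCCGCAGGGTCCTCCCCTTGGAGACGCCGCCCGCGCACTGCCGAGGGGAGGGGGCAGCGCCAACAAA
Col4a2: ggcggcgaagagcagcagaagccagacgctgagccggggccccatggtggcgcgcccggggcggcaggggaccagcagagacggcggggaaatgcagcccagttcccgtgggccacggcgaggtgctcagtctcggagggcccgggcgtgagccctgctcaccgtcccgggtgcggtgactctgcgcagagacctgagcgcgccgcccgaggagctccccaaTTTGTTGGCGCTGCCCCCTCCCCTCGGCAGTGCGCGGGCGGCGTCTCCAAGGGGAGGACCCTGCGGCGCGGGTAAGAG

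Col4a1 had 31.1 to 49.4 CPM (median 39.1) in MS_EC12, 26.6 to 43.3 CPM (median 39.3) in Control_EC12, 28.4 to 34.2 CPM (median 32.9) in MS and 33.1 to 41.2 CPM (median 37.5) in Control. The MS libraries were the lowest as a group, and all groups overlapped. Its log2 fold change was 0.28 ± 0.10 in MS_EC12 against MS (adjusted p = 0.0952), higher in 5 of 6 libraries, but 0.06 in the 17 libraries (adjusted p = 0.886), and −0.21 ± 0.10 in MS against Control (adjusted p = 1), lower in 6 of 6. Col4a2 stood at 0.14 in MS_EC12 against MS (−0.07 in the 17 libraries) and at −0.16 in MS against Control. The genes overlap in their first bases, and the setting for strand in the counting is not given in the sources used here, so a few reads of one could have been counted for the other.

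Lama4 encodes the laminin chain of endothelial basement membranes, and Lama2 the chain laid down by perivascular cells and astrocytes. Lama4 had 5.24 to 7.16 CPM (median 5.54) in MS_EC12, 6.38 to 11.3 CPM (median 8.98) in Control_EC12, 5.61 to 7.20 CPM (median 6.43) in MS and 6.91 to 8.44 CPM (median 7.64) in Control. In MS_EC12, 5 of 6 libraries were below every Control_EC12 library, and replicate 1, the highest MS_EC12 library, reached into the ranges of Control_EC12 and Control. Lama4 fell to 5.77 ± 0.734 CPM in MS_EC12, against 8.78 ± 1.85 CPM in Control_EC12 (SD, n = 6), a log2 fold change of −0.60 ± 0.12 (edgeR adjusted p = 0.0228). Against Control, at 7.70 ± 0.615 CPM, its log2 fold change was −0.42 ± 0.12 (adjusted p = 0.0354). Both calls were lost in the 17 libraries (−0.59, adjusted p = 0.0634, and −0.24, adjusted p = 0.417). The call against Control_EC12 was also lost without replicate 1, 2, 5 or 6 of Control_EC12 or replicate 3, 4, 5 or 6 of MS_EC12, and that against Control without any 1 Control library or replicate 3, 4, 5 or 6 of MS_EC12. Lama2 had 7.74 to 11.7 CPM (median 9.85) in MS_EC12, 9.57 to 14.996 CPM (median 12.4) in Control_EC12, 8.94 to 11.9 CPM (median 10.3) in MS and 10.5 to 12.8 CPM (median 11.6) in Control, with overlap throughout, and stood at −0.33 ± 0.11 in MS_EC12 against Control_EC12 (adjusted p = 0.211; −0.30 in the 17 libraries), lower in 6 of 6 libraries.

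The other basement membrane genes did not pass with edgeR in any comparison of all 24 libraries. Nid1, a nidogen that links laminin to type IV collagen, ran at 7.83 to 17.6 CPM in Control_EC12, its widest spread, and 10.1 to 11.6 CPM in Control. Nid2 overlaps Rtraf over 386 bases and had its lowest value of the series, 1.59 CPM, in an MS_EC12 library. Lamc1, the gamma chain shared by most laminins, had its lowest value, 19.1 CPM, in a Control_EC12 library. Lamb1 stood at −0.28 ± 0.10 in MS_EC12 against Control (adjusted p = 0.0561), passed with DESeq2 (adjusted p = 0.0418) and stood at −0.20 in the 17 libraries (adjusted p = 0.549).

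Thbs1 and Eln were the adhesive glycoprotein and elastic fibre genes that passed. Thbs1 encodes thrombospondin 1, a matrix glycoprotein that activates latent TGF-beta, inhibits vessel growth and, when secreted by astrocytes, promotes synapse formation. It lies on chromosome 2 from 118111876 to 118127133. Thbs1 had 2.097 to 3.58 CPM (median 2.47) in MS_EC12, 4.03 to 6.03 CPM (median 5.86) in Control_EC12, 2.47 to 4.23 CPM (median 3.42) in MS and 3.48 to 5.08 CPM (median 3.77) in Control. Every MS_EC12 library was below every Control_EC12 library, while MS and Control overlapped with each other and with both. Thbs1 fell to 2.69 ± 0.627 CPM in MS_EC12, against 5.47 ± 0.788 CPM in Control_EC12 (SD, n = 6), a log2 fold change of −1.02 ± 0.16 (adjusted p = 0.00215). It also fell in MS_EC12 against Control, at 4.09 ± 0.697 CPM, with a log2 fold change of −0.60 ± 0.16 (adjusted p = 0.0312).

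Both differences for Thbs1 were larger in the 17 libraries, at −1.42 against Control_EC12 (adjusted p = 0.00617) and −0.94 against Control (adjusted p = 0.0354). Of the MS_EC12 libraries, only replicates 1 and 2 are among the 17. With the GC slope as a covariate the call against Control_EC12 held (−1.09, adjusted p = 0.0017), and with only those groups it was lost (adjusted p = 0.0655). The call against Control_EC12 held without any 1 of the 12 libraries, but not without Control_EC12 replicate 2, MS_EC12 replicate 2 and MS_EC12 replicate 6 together (adjusted p = 0.0727), a choice made after the values were seen and partly from values of the members. The call against Control was lost without replicate 1, 2, 3, 5 or 6 of Control or replicate 3, 5 or 6 of MS_EC12. It was also lost with the GC slope as a covariate (−0.70, adjusted p = 0.11) and with no filter on low counts (adjusted p = 0.053). Thbs1 stood at 0.42 ± 0.15 in Control_EC12 against Control (adjusted p = 0.409) and at −0.36 ± 0.16 in MS_EC12 against MS (adjusted p = 0.129), values of opposite sign of which neither passed. Their difference, the interaction, was −0.78 ± 0.22 (adjusted p = 0.56).

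Eln encodes elastin, the extensible core of elastic fibres in vessel walls and meninges, and lies on chromosome 5 from 134702595 to 134747368. It had 7.18 to 12.9 CPM (median 9.67) in MS_EC12, 6.40 to 7.69 CPM (median 6.75) in Control_EC12, 6.54 to 8.69 CPM (median 7.69) in MS and 4.54 to 7.32 CPM (median 5.83) in Control. All but 1 of the MS_EC12 libraries were above every Control library, and the lowest MS_EC12 library was inside the Control range. Eln rose to 9.77 ± 2.06 CPM in MS_EC12, against 5.87 ± 0.948 CPM in Control (SD, n = 6), a log2 fold change of 0.74 ± 0.12 (adjusted p = 0.00713). The value was 0.78 in the 17 libraries (adjusted p = 0.0354), and the call held without any 1 of 12 libraries. Against Control_EC12, MS_EC12 stood at 0.51 ± 0.12 (adjusted p = 0.0849; adjusted p = 0.00744 with DESeq2; 0.55 and adjusted p = 0.245 in the 17 libraries), higher in 6 of 6 libraries. MS stood at 0.38 ± 0.12 against Control (adjusted p = 0.764), higher in 6 of 6. Eln was the member furthest above 0 in MS against Control.

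**Figure D2:**
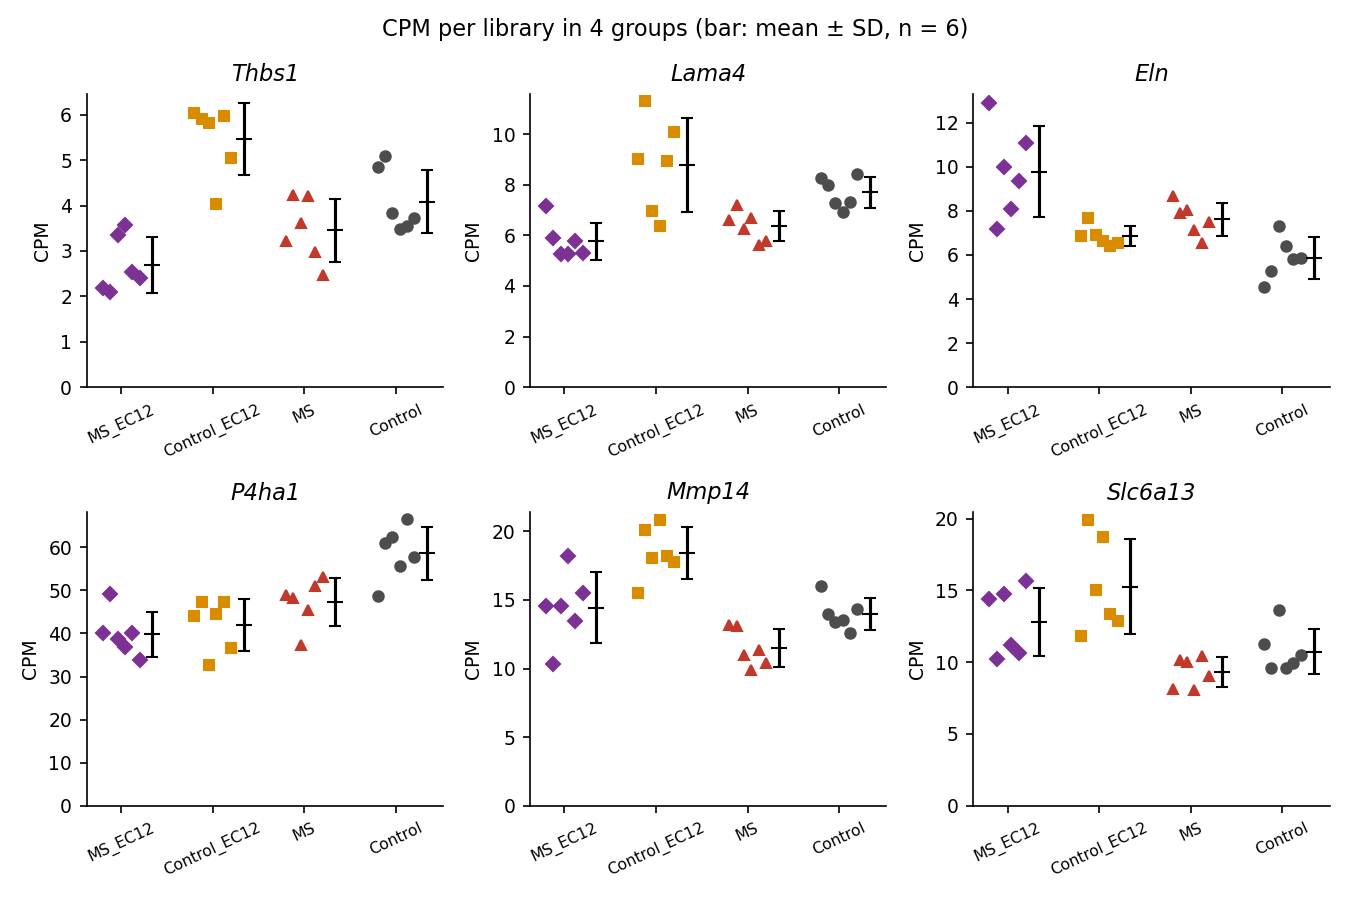
CPM of 6 genes in each library, by group, with the mean ± SD of 6 libraries beside the points. Thbs1 in MS_EC12 (2.097 to 3.58 CPM) lies below every Control_EC12 library (4.03 to 6.03 CPM), and P4ha1 in Control_EC12 (32.6 to 47.3 CPM) below every Control library (48.6 to 66.5 CPM).

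Of the remaining genes of this group, Fn1 encodes fibronectin, an adhesive protein of plasma and matrix, and ran at 44.6 to 67.0 CPM in MS_EC12, 43.4 to 67.4 CPM in Control_EC12, 42.4 to 48.6 CPM in MS and 46.8 to 65.5 CPM in Control. It had the narrowest range in MS, at the low side of the other groups, and stood at −0.33 ± 0.10 in MS against Control (adjusted p = 0.712) and 0.30 ± 0.10 in MS_EC12 against MS (adjusted p = 0.0871; 0.25 in the 17 libraries). Fbn1, the fibrillin that scaffolds elastin, ran at 3.04 to 6.47 CPM in MS_EC12 and 5.84 to 8.13 CPM in Control_EC12, a log2 fold change of −0.69 ± 0.19 (adjusted p = 0.147; adjusted p = 0.0383 with DESeq2), but −0.35 in the 17 libraries (adjusted p = 0.629). Loxl1, an oxidase that crosslinks elastin, stood at 0.43 ± 0.15 in MS_EC12 against MS (adjusted p = 0.0903) and at 0.10 in the 17 libraries (adjusted p = 0.927). Mgp and the fibulins Fbln1 and Fbln5, which bind elastic fibres, lay within −0.14 and 0.31 in the 5 comparisons of groups over all 24 libraries. In the 17 libraries, MS_EC12 against Control stood at 0.51 for Mgp (adjusted p = 0.122) and −0.37 for Fbln1 (adjusted p = 0.167). Against Control_EC12, Fbln1 stood at −0.41 there (adjusted p = 0.205).

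The small leucine-rich proteoglycans bind collagen fibres and control their spacing. Dcn, decorin, a marker of most fibroblasts, had 5.56 to 17.4 CPM (median 9.62) in MS_EC12, 6.26 to 24.3 CPM (median 15.3) in Control_EC12, 7.30 to 12.8 CPM (median 11.7) in MS and 9.62 to 14.9 CPM (median 13.5) in Control. Its MS_EC12 and Control_EC12 libraries spread widely, and no group stood apart. The log2 fold change was −0.51 ± 0.24 in MS_EC12 against Control_EC12 (adjusted p = 0.308; −0.13 in the 17 libraries). Bgn, biglycan, had 12.4 to 19.9 CPM (median 18.1) in MS_EC12, 16.1 to 27.2 CPM (median 20.02) in Control_EC12, 12.6 to 17.2 CPM (median 14.95) in MS and 14.8 to 18.0 CPM (median 16.7) in Control. It stood at 0.34 ± 0.13 in Control_EC12 against Control (adjusted p = 0.411), higher in 4 of 6 libraries, and at −0.26 in MS_EC12 against Control_EC12 (−0.53 in the 17 libraries).

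Fmod, fibromodulin, had 13.2 to 30.2 CPM (median 20.4) in MS_EC12, 20.8 to 30.2 CPM (median 25.7) in Control_EC12, 17.1 to 23.5 CPM (median 21.0) in MS and 20.1 to 25.1 CPM (median 23.2) in Control, and the groups overlapped. Its value was −0.29 ± 0.14 in MS_EC12 against Control_EC12 (adjusted p = 0.308), and −0.66 in the 17 libraries (adjusted p = 0.0747). Lum, lumican, was the least abundant proteoglycan of the group at 2.56 TPM and lay between −0.19 and 0.11 in all comparisons. Ogn, osteoglycin, had the largest ratio of highest to lowest library within a group of the 38 genes, at 1.94 to 14.2 CPM within MS_EC12 alone. Ogn lies inside the span of Cenpp, so reads of that gene could have been counted for it.

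Ogn and Dcn were low in most libraries of GC slope above 0. Ogn has the lowest GC content of the 38 genes, 36.3%, and Dcn has 42.4%. In the 6 libraries of steepest GC slope, 4 of them MS_EC12, 1 MS and 1 Control_EC12, Ogn ran at 1.94 to 4.46 CPM, against 7.41 to 14.2 CPM in the other 18. The seventh library with a slope above 0, Control_EC12 replicate 4 at 0.101, is among those 18, and had 11.2 CPM of Ogn and 17.2 CPM of Dcn, within the range of the libraries of slope below 0. Dcn ran at 5.56 to 10.03 CPM, against 9.62 to 24.3 CPM. Lamb2, the laminin chain of vascular and synaptic basement membranes, at 58.9% GC, was higher in those 6 (28.4 to 32.0 CPM, against 17.2 to 28.6 CPM). In the 17 libraries Lamb2 fell in MS_EC12 against Control_EC12 (−0.58, adjusted p = 0.00671) and against Control (−0.51, adjusted p = 0.0124), where over all 24 it stood at −0.07 and 0.02. Those calls rest on 2 MS_EC12 libraries, and with the GC slope as a covariate over all 24 Lamb2 stood at −0.28 (adjusted p = 0.209) and −0.28 (adjusted p = 0.222) and did not pass. Dcn stood at 0.23 in MS_EC12 against Control in the 17 libraries and at −0.30 in all 24, and passed in neither.

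**Figure D3:**
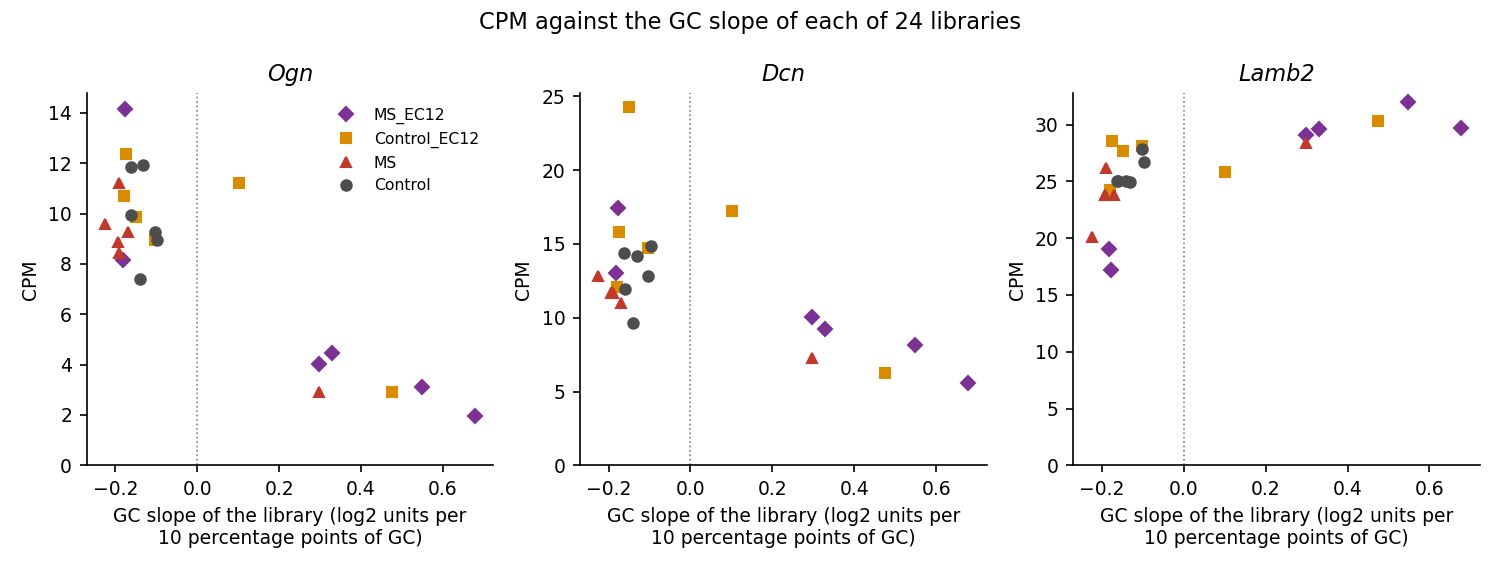
CPM of Ogn, Dcn and Lamb2 in each of 24 libraries against the GC slope of the library, with the dotted line at a slope of 0. Ogn is at 1.94 to 4.46 CPM in the 6 libraries of steepest slope, and Lamb2 at 28.4 to 32.0 CPM.

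Among the genes of collagen processing and turnover, P4ha1 encodes the catalytic subunit of prolyl 4-hydroxylase, which hydroxylates collagen chains and is known to be induced by hypoxia, and lies on chromosome 10 from 59323197 to 59373304. P4ha1 had 33.8 to 49.1 CPM (median 39.4) in MS_EC12, 32.6 to 47.3 CPM (median 44.2) in Control_EC12, 37.2 to 53.1 CPM (median 48.5) in MS and 48.6 to 66.5 CPM (median 59.3) in Control. Every Control_EC12 library was below every Control library, and 5 of 6 MS_EC12 libraries were below every Control library. P4ha1 fell to 39.8 ± 5.15 CPM in MS_EC12, against 58.6 ± 6.17 CPM in Control (SD, n = 6), a log2 fold change of −0.56 ± 0.10 (adjusted p = 0.0158). The value was −0.39 in the 17 libraries, where it did not pass (adjusted p = 0.0866), and the call was lost without MS_EC12 replicate 6 (adjusted p = 0.053), the library of highest choroid plexus sum. In Control_EC12 against Control the value was −0.48 ± 0.10 (adjusted p = 0.0812). That comparison passed in the 17 libraries (−0.42, adjusted p = 0.0279), with the GC slope as a covariate (−0.42, adjusted p = 0.00619), with DESeq2 (adjusted p = 0.00476) and without Control replicate 1 (adjusted p = 0.0445). It did not pass without any other single library, with no filter on low counts, with only those groups or with limma on either TPM scale. MS stood at −0.31 ± 0.10 against Control (adjusted p = 0.817), lower in 6 of 6 libraries.

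The P4ha1 window in the RefSeq table, chr10:59323046-59323345 on the plus strand of GRCm38.p6, is shown because the promoters of Thbs1, Eln and Lama4 were not used here. The capitals mark matches to ACGTG, the core of the hypoxia-response element, here on the minus strand and so printed as CACGT, and to TATAAA. The match to TATAAA begins at base 290 of the window, of which 250 bases precede the start, so it lies after the start. Searched on both strands, ACGTG was found in 19.6% of all 32851 windows and TATAAA in 13.6%. The 26 members in the table have 34 windows, since some have several starts, and of these 11 held ACGTG and 3 held TATAAA. The motif CCAAT was in 13 of the 34 and in 37.4% of all windows, and GGGCGG was in 20 of the 34 and in 35.7%.
P4ha1: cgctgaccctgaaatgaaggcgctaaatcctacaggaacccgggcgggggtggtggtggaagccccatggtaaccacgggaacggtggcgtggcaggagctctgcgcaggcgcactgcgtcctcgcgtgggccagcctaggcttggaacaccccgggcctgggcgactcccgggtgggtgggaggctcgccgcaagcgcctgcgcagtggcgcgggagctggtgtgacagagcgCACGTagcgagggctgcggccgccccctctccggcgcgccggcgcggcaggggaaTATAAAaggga

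Mmp14 encodes a membrane-anchored metalloproteinase that cuts fibrillar collagen and activates other proteases. It had 10.3 to 18.2 CPM (median 14.6) in MS_EC12, 15.5 to 20.9 CPM (median 18.1) in Control_EC12, 9.86 to 13.2 CPM (median 11.2) in MS and 12.6 to 16.0 CPM (median 13.7) in Control. The median was highest in Control_EC12 and lowest in MS, and groups next to each other in the order of medians overlapped. Control_EC12 stood at 0.40 ± 0.11 against Control (adjusted p = 0.199), higher in 6 of 6 libraries, and MS_EC12 at −0.35 ± 0.11 against Control_EC12 (adjusted p = 0.186), lower in 6 of 6 (−0.52 in the 17 libraries). MS_EC12 stood at 0.33 ± 0.11 against MS (adjusted p = 0.0843; adjusted p = 0.0395 with DESeq2) but at 0.10 in the 17 libraries (adjusted p = 0.867), and MS at −0.28 ± 0.11 against Control (adjusted p = 1). Serpinh1, the chaperone that folds procollagen, reached 35.8 CPM in MS_EC12 and 26.7 CPM in Control_EC12 at its highest, and stood at 0.29 ± 0.13 between them (adjusted p = 0.298), or −0.07 in the 17 libraries.

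The meningeal markers are transporters and secreted or metabolic proteins of leptomeningeal cells. Slc6a13 encodes the GABA and taurine transporter GAT2. It had 10.2 to 15.6 CPM (median 12.8) in MS_EC12, 11.8 to 19.9 CPM (median 14.2) in Control_EC12, 8.09 to 10.4 CPM (median 9.51) in MS and 9.57 to 13.6 CPM (median 10.2) in Control. The median was highest in Control_EC12 and lowest in MS, and both groups overlapped with Control. Slc6a13 stood at 0.51 ± 0.14 in Control_EC12 against Control (adjusted p = 0.193), higher in 6 of 6 libraries, and at 0.46 ± 0.14 in MS_EC12 against MS (adjusted p = 0.0798; adjusted p = 0.0297 with DESeq2), also higher in 6 of 6. Restricted to the 17 libraries these values were 0.43 and 0.43, and neither passed.

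Ptgds had 556 to 957 CPM (median 879.8) in MS_EC12, 742 to 1164 CPM (median 845) in Control_EC12, 587 to 725 CPM (median 657) in MS and 546 to 751 CPM (median 648) in Control. The MS range lay inside that of Control, and Control_EC12 overlapped with Control. Ptgds stood at 0.41 ± 0.12 in Control_EC12 against Control (adjusted p = 0.257), higher in 6 of 6 libraries, at 0.32 ± 0.12 in MS_EC12 against MS (adjusted p = 0.101) and at 0.32 ± 0.12 in MS_EC12 against Control (adjusted p = 0.0655; adjusted p = 0.0369 with DESeq2). In the 17 libraries both comparisons with MS_EC12 were smaller, at 0.17 and 0.14. Igf2, Aldh1a2, which makes retinoic acid, and the transporters of dicarboxylates and organic anions Slc13a3 and Slc22a6 were above 0 in Control_EC12 against Control, at 0.25, 0.37, 0.23 and 0.07, and none passed (adjusted p of at least 0.412). In MS_EC12 against Control_EC12, Igf2 stood at −0.26 with DESeq2 (adjusted p = 0.213). It stood at −0.50 in the 17 libraries (adjusted p = 0.0617) and −0.42 with the GC slope as a covariate (adjusted p = 0.0578).

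Maternal separation without the supplement was compared first across all members. In MS against Control, 35 of the 38 genes had a log2 fold change below 0, where 52% of all genes tested were below 0, and the median was −0.19 over the members and −0.01 over all genes. None of the 38 passed with edgeR, DESeq2 or limma, where 0.0326% of all genes did with edgeR. An unadjusted p under 0.05 was reached by 6 members, against 3.6% of all genes, with Fn1, P4ha1, Mmp14, Lama4 and Col4a1 lower and Eln higher. In 0 members were the groups free of overlap (0.718% of all genes). The collagens were below 0 in 6 of 6 (median −0.20), the basement membrane genes in 10 of 10 (−0.18) and the meningeal markers in 6 of 6 (−0.16). Endothelial genes had a median of −0.25, with 13 of 14 below 0, and summed to 229.9 to 285 CPM in MS, against 246 to 360.0 CPM in Control. The part of these genes in the members' values was not tested.

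The supplement without separation went with values above 0 for most members. In Control_EC12 against Control, 28 of 38 were above 0, against 52.1% of all genes, with a median of 0.18 against 0.01. Over all genes 0.0218% passed and none of the members did with edgeR, while 1, P4ha1, did with DESeq2. An unadjusted p under 0.05 was found for 10 members, against 8.93% of all genes, namely Slc6a13, Thbs1, Ptgds, Mmp14, Aldh1a2, Col1a1, Bgn, Col3a1 and Igf2 higher and P4ha1 lower. P4ha1 was the 1 member whose groups did not overlap (1.33% of all genes). The meningeal markers were above 0 in 6 of 6, with a median of 0.31, and the collagens in 6 of 6, with a median of 0.19. The basement membrane genes were above 0 in 5 of 10, with a median of 0.03, and none had an unadjusted p under 0.05. Olfactory bulb genes had a median of 0.83 in the same comparison, with 8 of 10 above 0. Of 19 other listed fibroblast markers, not all particular to fibroblasts, 13 were above 0 (median 0.11). The part of either in the members' values was not tested.

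The supplement in separated mice gave values above 0 that depended on the libraries used. In MS_EC12 against MS, 30 of 38 members were above 0, against 51.9% of all genes, with a median of 0.16 against 0.02. None passed with edgeR (0.163% of all genes did) and 4 did with DESeq2, namely Fn1, Eln, Mmp14 and Slc6a13, all higher. At an unadjusted p under 0.05 were 12 members, against 31.8% of all genes, so the members' share was close to that background. Groups were free of overlap in 0 members (0.854% of all genes). With edgeR, 7 members passed without MS replicate 3, 7 without MS_EC12 replicate 1 and 10 without MS_EC12 replicate 2. Above 0 in the 17 libraries were 19 of 38, and the median was 0.00478. The MS_EC12 libraries among the 17 are replicates 1 and 2, and replicate 2 held the lowest value of 10 members. The part of that library in the smaller median was not tested. With the GC slope as a covariate over all 24 libraries the median was 0.0753. The meningeal markers had a median of 0.25 in all 24 libraries and 0.15 in the 17, the collagens 0.16 and −0.04, and the basement membrane genes 0.11 and 0.0011. Markers of other tissue were also above 0 in this comparison, with blood genes at a median of 0.76 (5 of 5 above 0), olfactory bulb genes at 0.77 (10 of 10), choroid plexus genes at 0.70 (7 of 8) and ependymal genes at 0.54 (7 of 8). The choroid plexus sum, however, had a median of 21.6 CPM over the MS_EC12 libraries and 22.4 CPM over MS, with 711 CPM in MS_EC12 replicate 6. None of the genes on these 4 lists passed with edgeR, and their part in the members' values was not tested.

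**Figure D4:**
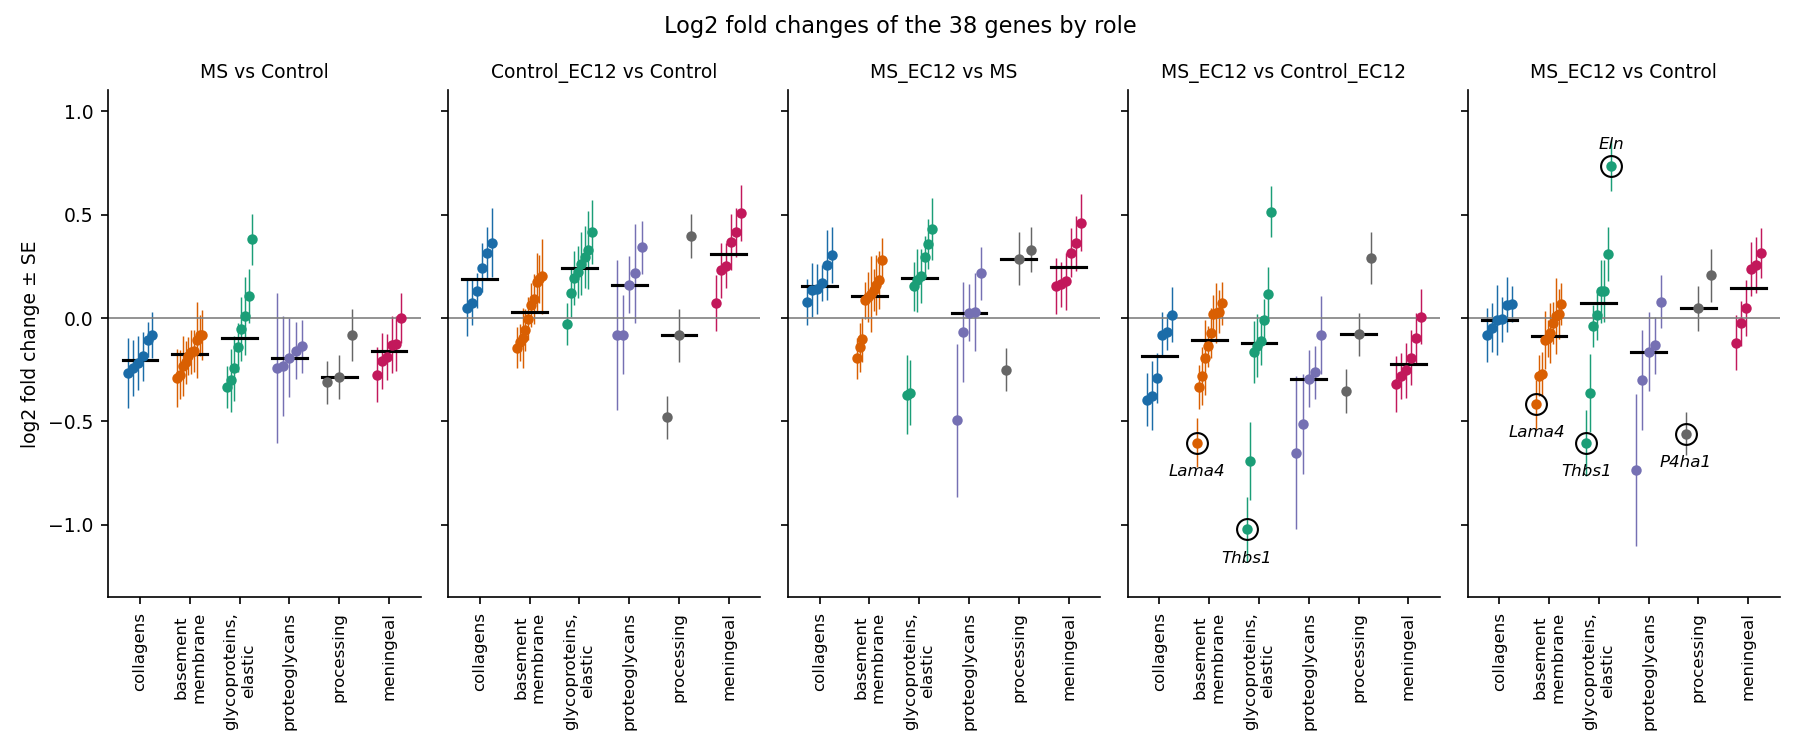
Log2 fold change ± SE of each of the 38 genes in 5 comparisons of groups, by role, with black bars at the median of each role and circles around the genes of adjusted p under 0.05. The bars of all 6 roles lie below 0 in MS against Control, and the meningeal bar is at 0.31 in Control_EC12 against Control.

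Separation was next compared among supplemented mice. In MS_EC12 against Control_EC12 the 2 members that passed were Thbs1 and Lama4, both lower, where 0.261% of all genes passed. Of the 38 genes, 29 were below 0, against 53.5% of all genes, with a median of −0.15 against −0.02. At an unadjusted p under 0.05 were 15 members, against 15.9% of all genes, of which Eln and Serpinh1 were higher and the other 13 lower. Thbs1 was the 1 member with groups free of overlap (0.468% of all genes). The proteoglycans were below 0 in 5 of 5 (median −0.29), the meningeal markers in 5 of 6 (−0.22), the collagens in 5 of 6 (−0.19) and the basement membrane genes in 6 of 10 (−0.10). In the 17 libraries, of which 2 are MS_EC12, 34 of 38 were below 0, with a median of −0.25, and Thbs1 and Lamb2 passed, both lower. DESeq2 called Eln and Fbn1 beside Thbs1 and Lama4, and none of the 38 passed without Control_EC12 replicate 2, MS_EC12 replicates 2 and 6 together. This comparison shares the Control_EC12 libraries with that of Control_EC12 against Control, and Control_EC12 replicate 2 held the highest value of 11 members. In the same comparison Ly6c1, an endothelial gene, rose (0.71, adjusted p = 0.0212), blood genes had a median of 0.48 (5 of 5 above 0, 5 at an unadjusted p under 0.05) and choroid plexus genes one of 0.73 (7 of 8 above 0, 4 at an unadjusted p under 0.05). The choroid plexus sum had a median of 21.6 CPM over the MS_EC12 libraries and 20.1 CPM over Control_EC12, with 711 CPM in MS_EC12 replicate 6. The part of these markers in the values of Thbs1 and Lama4 was not tested.

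MS_EC12 differed from Control in 4 members, with Eln higher and Thbs1, P4ha1 and Lama4 lower, where 14.1% of all genes passed, so the members' count was near the background. Below 0 were 21 of 38 (49.2% of all genes), with a median of −0.02 over the members and 0.01 over all genes. At an unadjusted p under 0.05 were 8 (38.3% of all genes), and in 0 were the groups free of overlap (5.19%). In the 17 libraries Thbs1, Eln and Lamb2 passed, 28 of 38 were below 0 and the median was −0.19, where 50.1% of all genes were above 0. The 2 MS_EC12 libraries of that fit, replicates 1 and 2, had members' medians of 0.01 and −0.29 from the Control mean in log2 CPM. DESeq2 called Lamb1 and Ptgds beside the same 4. With the GC slope as a covariate only Eln passed (0.71, adjusted p = 0.0267). The collagens had a median of −0.01, the basement membrane genes −0.09 and the meningeal markers 0.14. Without MS_EC12 replicate 6, P4ha1, Thbs1 and Lama4 no longer passed and Eln did, and 7 members passed without MS_EC12 replicate 1 and 7 without replicate 2. Without replicate 1, 2, 3, 5 or 6 of Control the count was 2, Eln and P4ha1.

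The test of whether the difference with the supplement was unequal between separated and unseparated mice gave 0 members past the threshold with edgeR and with DESeq2, where 0.0109% of all genes passed with edgeR. At an unadjusted p under 0.05 were 4 members (4.8% of all genes), Thbs1 (−0.78), Fbn1 (−0.70), Fn1 (0.33) and Serpinh1 (0.37). Below 0 were 19 of 38, against 53.2% of all genes. Medians were −0.05 for the collagens, 0.01 for the basement membrane genes and −0.07 for the meningeal markers.

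Single libraries carried much of the spread. Of the 38 genes, 24 had their highest value in a Control_EC12 library, 10 in MS_EC12, 0 in MS and 4 in Control, and the lowest value was in MS_EC12 for 17, Control_EC12 for 5, MS for 13 and Control for 3. MS_EC12 replicate 2 held the lowest value of 10 members and stood at a median of −0.29 from the Control mean (log2 CPM, 4 of 38 above it), while MS_EC12 replicate 3 stood at 0.21 (26 of 38 above). Control_EC12 replicate 2 stood at 0.30, with 32 of 38 above. The MS libraries ran from −0.30 to −0.08. The Control libraries, whose own mean is the reference and which so lie around 0, ran from −0.07 to 0.06. The collagens and the meningeal markers of MS_EC12 replicate 2 stood at −0.39 and −0.32, and its basement membrane genes at −0.29. Control_EC12 replicate 4 had meningeal markers at 0.47 and basement membrane genes at −0.34, the largest split between these roles in a Control_EC12 library.

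**Figure D5:**
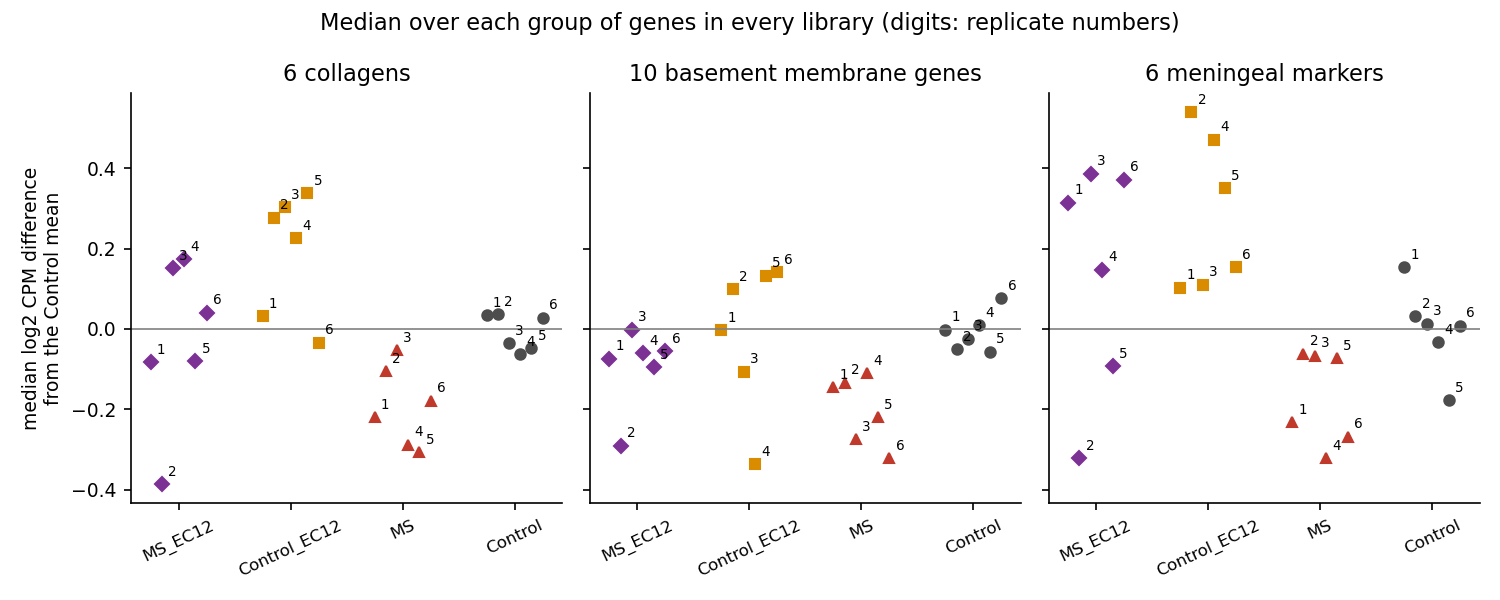
Median log2 CPM difference from the Control mean in every library over 6 collagens, 10 basement membrane genes and 6 meningeal markers, with digits for replicate numbers. MS_EC12 replicate 2 is the lowest MS_EC12 library in each panel, and Control_EC12 replicate 4 is high for meningeal markers (0.47) and low for basement membrane genes (−0.34).

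Other genes of the matrix pathway were read from a list of 55, all tested. In MS_EC12 against Control 6 of the 55 passed, where 14.1% of all genes did, so their count was not above the background. There 3 rose, namely Lamb3 (0.40, adjusted p = 0.0478), a laminin chain of epithelial basement membranes, Timp4 (0.36, adjusted p = 0.0338), an inhibitor of metalloproteinases, and Vtn (0.37, adjusted p = 0.0436), the pericyte glycoprotein vitronectin. In the same comparison 3 fell, namely the integrin subunits Itga1 (−0.95, adjusted p = 0.0302), a collagen receptor, and Itgb1 (−0.35, adjusted p = 0.0458), and the TGF-beta receptor Tgfbr1 (−0.55, adjusted p = 0.0496). None of the 6 passed in the 17 libraries, where Vtn stood at 0.02 and Tgfbr1 at −0.09, and the list's median was 0.11 in all 24. None of the 55 passed in the other 5 comparisons, with 5, 9, 12, 13 and 3 at an unadjusted p under 0.05 in MS against Control, Control_EC12 against Control, MS_EC12 against MS, MS_EC12 against Control_EC12 and the interaction. Of all genes, 3.6%, 8.93%, 31.8%, 15.9% and 4.8% were under it in the same order. Among 18 genes of the perineuronal and parenchymal matrix and 19 other fibroblast markers none passed in any comparison with edgeR. At an unadjusted p under 0.05 in MS_EC12 against Control_EC12 were 2 of the 18 and 5 of the 19 (15.9% of all genes). In MS_EC12 against Control they numbered 8 and 3 (38.3% of all genes). The other fibroblast markers summed to 243 to 287 CPM in MS_EC12, 225 to 302 in Control_EC12, 269 to 308 in MS and 272 to 291 in Control. That list includes Pdgfra and Foxp1, which are not particular to fibroblasts, so the sum does not measure fibroblast content.

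In MS_EC12 against Control, where 4 members and 14.1% of all genes passed, markers of other cells passed too. Over all genes 2594 passed in all 24 libraries, 193 in the 17 and 40 with the GC slope as a covariate. Values of the markers in those other fits are not given here. Called in all 24 libraries were 2 of 8 choroid plexus genes, 3 of 8 ependymal, 4 of 5 blood, 4 of 8 astrocyte and 2 of 9 microglia and border macrophage genes. Of the astrocyte genes called, 2 were higher and 2 lower. Also called were 2 of 14 endothelial, 1 of 8 oligodendrocyte, 1 of 8 neuron, 1 of 12 mural and 0 of 10 olfactory bulb genes. The endothelial, oligodendrocyte and neuron counts were near the share of all genes. The choroid plexus sum had a median of 21.6 CPM over the MS_EC12 libraries and 20.5 CPM over Control, with 711 CPM in MS_EC12 replicate 6. Blood genes summed to 229 to 599 CPM in MS_EC12, against 205 to 289.6 CPM in Control, and the haemoglobin gene Hbb-bt rose by 0.72 on the log2 scale (adjusted p = 0.035). The endothelial gene Ly6c1 rose (0.60, adjusted p = 0.0223) and Slco1a4, a transporter of the blood-brain barrier, fell (−0.69, adjusted p = 0.0426). The border macrophage genes went both ways, with Mrc1 lower (−0.81, adjusted p = 0.0227) and Pf4 higher (1.03, adjusted p = 0.0354). Their part in the values of Eln, Thbs1, P4ha1 and Lama4 was not tested.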

How the data were processed

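RNA-seq of prefrontal cortex covered 24 libraries in 4 groups, of 26250197 to 39252382 counts each. Per the labels' protocols, ISOGEN II was used for RNA and a stranded mRNA kit for the libraries. HISAT2 2.1.0 and StringTie 2.1.3b, the trimming and quality tools Trimmomatic 0.38 and FastQC 0.11.7, the package DESeq2 and mm10 are listed in the submitters' processing notes. How reads were counted, and on which strand, is not given in the sources used here. In 1 table the authors deposited raw read counts per gene, and TPM values per gene beside them. The authors also deposited FPKM values there, which were not used for any test. Of the gene IDs, 99.78% were matched in a RefSeq table.

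Counts were filtered (filterByExpr, minimum count 10, minimum total 15), scaled by TMM and fitted in edgeR 4.0.16 (R 4.3.3) with 1 coefficient per group over all 24 libraries. Differences were tested by the quasi-likelihood F test with Benjamini-Hochberg adjustment over 18380 genes, and genes passed at an adjusted p under 0.05. The log2 CPM values behind the GC slopes and the library medians use a prior count of 2. CPM values are TMM-scaled. With 6 libraries per group, the number of libraries limits the precision. The script was tested on simulated data. No 2 libraries agreed within counting noise, the smallest chi-square per gene between libraries being 5.02. GC content came from transcripts, for 82.4% of the genes tested. Alternatives used DESeq2 1.42.0, limma 3.58.1 on log2(TPM + 0.1) and log2(TPM + 1), no filter, only the groups compared, a replicate block, GC corrections, and each library left out.

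Values in every library are described for members that passed in any comparison, the 2 of smallest p in each role, and Col1a1, Col4a1, Dcn, Ptgds and Slc6a13. Other members named, among them those with a value near the threshold, were chosen after their values were seen. The members and gene lists were chosen with earlier results of these data known. Promoter sequences are from RefSeq (GRCm38.p6), which held a window for 26 of the 38 genes.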

Additional observations from a re-analysis of the deposited data

Results flagged for a closer look

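In 10 of 152 combinations of a member and a group, 1 library stood apart from the other 5, with a gap to its nearest neighbour above Dixon's 95% critical value as a share of the group's range. Chance gives about 1 such case in 20.

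In MS_EC12, Col5a1 was at 15.6 CPM in replicate 2, below the other libraries at 17.8 to 18.7 CPM, and Lama4 was at 7.16 CPM in replicate 1, above 5.24 to 5.88 CPM. In Control_EC12, replicate 2 was high for Eln (7.69 CPM, the others 6.40 to 6.88 CPM) and for Slc13a3 (36.0 CPM, the others 22.9 to 25.6 CPM). Replicate 4 of the same group was high for Ptgds, at 1164 CPM against 742 to 869.8 CPM in the others. Replicate 3 of Control_EC12 was low for Ogn, at 2.92 CPM against 8.94 to 12.4 CPM. In MS, replicate 3 was low for Ogn (2.91 CPM, the others 8.43 to 11.2 CPM) and for Dcn (7.30 CPM, the others 11.02 to 12.8 CPM). Control replicate 2 was low for Fbln5 (4.61 CPM, the others 6.29 to 6.69 CPM), and Control replicate 1 was high for Slc22a6 (10.2 CPM, the others 7.88 to 8.57 CPM). The GC slope was 0.298 in MS replicate 3 and 0.474 in Control_EC12 replicate 3, the libraries of low Ogn, and their part in these values was not tested.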

How the results depend on the processing

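For the 15 members whose values in every library are described, 2235 values were tried. Of these, 2055 kept their sign and side of the threshold, 48 lost the call, 33 gained one and 99 changed sign. None of those 99 was past the threshold either way. They included 16 of 90 values in the 17 libraries and 12 of 90 with the GC covariate, as for Dcn in MS_EC12 against Control. Lamb2, outside the 15, did change sign and pass in the 17 libraries in MS_EC12 against Control (−0.51, edgeR adjusted p = 0.0124). Leaving out 1 library gave 27 of the losses. The cause was not tested for any of these changes. In the order MS against Control, Control_EC12 against Control, MS_EC12 against MS, MS_EC12 against Control_EC12, MS_EC12 against Control and interaction, 6, 4, 30, 48, 2594 and 2 genes passed.

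Without 1 library they ran at 2 to 8, 4 to 24, 0 to 5064, 14 to 189, 10 to 6565 and 0 to 4. With the 17 libraries of negative GC slope they were 89, 87 and 14 in the first 3 comparisons, and 193 in MS_EC12 against Control. Without Control_EC12 replicate 2 and MS_EC12 replicates 2 and 6 together, a choice made after seeing the data, the 3 comparisons that start with MS_EC12 had 87, 7 and 1446. With the GC slope as a covariate the first 3 and last 2 were 62, 134, 3, 40 and 7. DESeq2 called 22, 74, 1894, 177, 4439 and 19 genes. On log2(TPM + 0.1) limma called 3, 2, 5, 17, 4110 and 0, and on log2(TPM + 1) the last 5 were 2, 161, 16, 4046 and 0. Without a filter 1 gene passed in MS_EC12 against MS, 339 in MS_EC12 against Control and 1 in the interaction, and with only the groups compared the first 4 were 13, 2, 0 and 2.

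Members past the threshold numbered 0, 0, 0, 2, 4 and 0. In Control_EC12 against Control the count was 1, P4ha1, in the 17 libraries, with DESeq2 and with the GC covariate, and 0 to 1 without 1 library. In MS_EC12 against MS it was 4 with DESeq2 and 0 to 10 without 1 library. In MS_EC12 against Control_EC12 it was 0 without those 3 libraries or with only those groups, 4 with DESeq2, 1 with the GC covariate or either TPM scale, and 1 to 3 without 1 library. In MS_EC12 against Control it was 1 with the GC covariate, 2 without a filter and 1 to 7 without 1 library. The members' median of 0.156 in MS_EC12 against MS became 0.00478 in the 17 libraries, 0.0753 with the GC covariate, 0.0274 on log2(TPM + 0.1) and 0.0267 on log2(TPM + 1). That of MS_EC12 against Control_EC12 was −0.151 and became −0.262 on log2(TPM + 0.1), and that of MS_EC12 against Control was −0.0173 and became −0.186 in the 17 libraries and −0.150 on log2(TPM + 0.1). That scale moved the median of all genes in MS_EC12 against Control to −0.102, and in MS_EC12 against Control_EC12 to −0.0850. In MS_EC12 against MS the median of all genes was 0.0153 in the main fit. It became −0.0901 on log2(TPM + 0.1) and −0.0614 on log2(TPM + 1), so all genes shifted down there along with the members.

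Whether replicate numbers pair the libraries was not settled. Same-numbered libraries deviated together at a correlation over 0.1 in 13 of 36 pairs. Their median was 0.082, against −0.014 between libraries of other numbers in other groups. Of 24 libraries, 5 correlated best with one of their own number. The GC slope was above 0 in replicate 3 of MS, Control_EC12 and MS_EC12, but not of Control. It was below 0 in replicates 1 and 2 of every group. With the replicate block 10, 33, 3809, 232, 5939 and 9 genes passed, and the members that passed numbered 1 in Control_EC12 against Control and 5, 4 and 8 in the comparisons that start with MS_EC12. With the GC covariate and the block together 71, 134, 0, 84, 3 and 28 genes passed, with 1 member in Control_EC12 against Control and 0 in MS_EC12 against Control, and the members' median was 0.0426 in MS_EC12 against MS and −0.143 in MS_EC12 against Control.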
